A study of Homo sapiens with 4 samples.

Results

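The AP-2 transcription factor genes TFAP2A, TFAP2B, TFAP2C, TFAP2D and TFAP2E were taken as the whole AP-2 family, 5 of the 20033 protein-coding genes of the GENCODE annotation. GATA3 binding at these genes was read from ChIP-seq, in which DNA bound by a protein is recovered with an antibody and sequenced. A deposited position was assigned to a gene when it lay at most 100 kb from the 5′ end of that gene on hg38, within the gene body, or carried the gene's symbol in the authors' naming. Positions of both replicates that lay at most 100 bp apart were joined into a shared region, and each region is described by its distance from the 5′ end, upstream or downstream in the direction of transcription.

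The cells were H1, an established human embryonic stem cell (hESC) line, kept on Matrigel in mTeSR1 medium and given BMP4, a differentiation signal, at 50 ng/ml for 6 h. The series had 4 samples, 2 GATA3 ChIP replicates and 2 input chromatin samples, all from BMP4-treated cells. A peak list of each ChIP replicate was analysed, with 1 base position per peak and no height, width or score. The lists held 18456 positions in replicate 1 and 12782 in replicate 2, and formed 9145 shared regions. Replicate 2 had fewer positions, and 71.6% of them lay within 100 bp of a replicate 1 position, against 49.6% the other way. Untreated cells were not compared here, so binding gained with BMP4 and binding already present cannot be told apart. Peak lists hold no expression values, so which AP-2 genes were expressed in these cells, and the identity of the cells, were not checked.

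AP-2 proteins are transcription factors that bind GC-rich DNA as dimers through a helix-span-helix domain. AP-2α (TFAP2A) and AP-2γ (TFAP2C) are known from early surface ectoderm, amnion and trophoblast, cell types in which GATA3 is also expressed, and AP-2γ also from the germ line and from naive pluripotent cells. AP-2β (TFAP2B) is known from neural crest, kidney and the ductus arteriosus, AP-2δ (TFAP2D) from the retina and midbrain, and AP-2ε (TFAP2E) from the olfactory bulb. On this general knowledge TFAP2A and TFAP2C are called the members active in amnion and trophoblast, and the remaining 3 genes the other members. These names do not mean that the other members are silent in amnion, which was not checked. The place of TFAP2B is the least certain, so the means are also given with TFAP2B among the active members.

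GATA3 positions of the AP-2 family were concentrated at TFAP2A. TFAP2A had 12 positions in replicate 1 and 10 in replicate 2, which formed 7 shared regions. TFAP2B and TFAP2D had 1 shared region each, and TFAP2C and TFAP2E had none. Together the family had 16 positions in replicate 1, 14 in replicate 2 and 9 shared regions at 3 of its 5 genes. At the members the symbol added no position beyond the window and gene body. All other genes were counted by window and gene body alone, without the symbol. Having a shared region in this span was common, since 47.5% of all protein-coding genes had at least 1. The presence of 1 region at TFAP2B or at TFAP2D was thus near the background. The number at TFAP2A was not common: 0.21% of protein-coding genes (42 genes) had 7 or more. The rule counts the whole gene body and so favours long genes, and 34 of those 42 genes had a body of over 100 kb, whereas that of TFAP2A was 26.5 kb. Counted in the 100 kb around the 5′ end alone, TFAP2A still had 7 regions, and 0.0499% of protein-coding genes (10 genes) had as many.

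**Figure D1:**
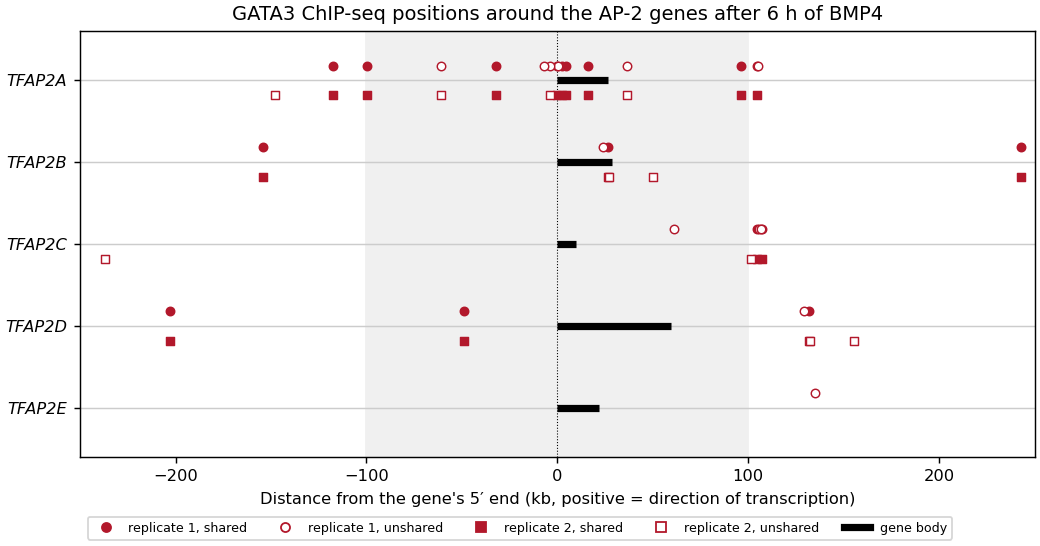
GATA3 positions within 250 kb of the 5′ end of each AP-2 gene (horizontal axis in kb, positive in the direction of transcription; grey band, 100 kb on either side). Circles are replicate 1, squares replicate 2, filled symbols are shared within 100 bp and black bars are gene bodies. TFAP2A has 7 shared regions in the grey band, TFAP2B and TFAP2D have 1 each, and TFAP2C and TFAP2E have 0.

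Of the members active in amnion and trophoblast, all 7 shared regions belonged to TFAP2A, giving a mean of 3.5 per gene over 2 genes. The 3 other members had 2 regions in all, a mean of 0.667 per gene, beside a mean of 0.741 and a median of 0 over all protein-coding genes. The difference between the sets therefore rested on 1 gene, since TFAP2C, at 0, was below TFAP2B and TFAP2D. With TFAP2B counted among the active members the means were 2.67 and 0.5. Sets of 2 and 3 genes of 1 condition allow no test, because genes are not replicates, and all counts here are descriptions of the lists of the 2 replicates.

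**Figure D2:**
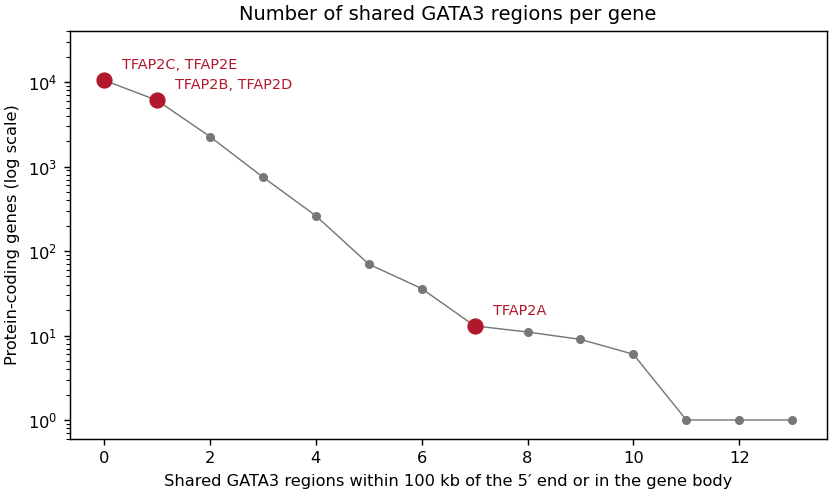
Number of protein-coding genes (vertical axis, log scale) with each number of shared GATA3 regions within 100 kb of the 5′ end or in the gene body (horizontal axis). Red points mark the values at which the AP-2 genes lie: 0 for TFAP2C and TFAP2E, 1 for TFAP2B and TFAP2D, and 7 for TFAP2A, where the curve has 13 genes including TFAP2A.

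TFAP2A encodes AP-2α, the founding member of the family. It lies on the minus strand at chr6:10393186-10419659 (ENSG00000137203.15) and has 19 annotated transcripts with 18 different starts. Its 7 shared regions fell on both sides of the 5′ end. Of these, 3 lay upstream, at 99.5, 32.0 and 0.122 kb, 3 lay inside the gene, at 2.26, 4.47 and 15.9 kb, and 1 lay beyond the gene's end at 96.0 kb. Within 10 kb of the 5′ end there were 3 regions, which 0.0549% of protein-coding genes (11 genes) reached. Within 1 kb there was 1 region, as at 2.42% of protein-coding genes.

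The 3 regions nearest the 5′ end each lay by an annotated TFAP2A transcript start. In the first, replicate 1 had position 10419777 and replicate 2 had 10419785, centred 122 bp upstream of the gene's 5′ end. In the next, the positions were 10417376 and 10417417, centred 189.5 bp upstream of the start of ENST00000490875.5, an alternative transcript with no coding sequence defined. The last of these regions had positions 10415210.5 and 10415166. Its centre and the replicate 2 position were in an untranslated exon of ENST00000488193.7, which starts at 10415206, and the replicate 1 position was just upstream of this start. The centre was 114 bp upstream of the start of the canonical transcript. This region also overlapped TFAP2A-AS1, an antisense RNA gene. Of all 7 TFAP2A regions, 3 lay within 200 bp of one of its transcript starts. Of all shared regions, near genes or far from them, 3.38% lay within 200 bp of the start of a protein-coding gene's transcript. The part of the number of TFAP2A starts in this closeness was not tested.

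**Figure D3:**
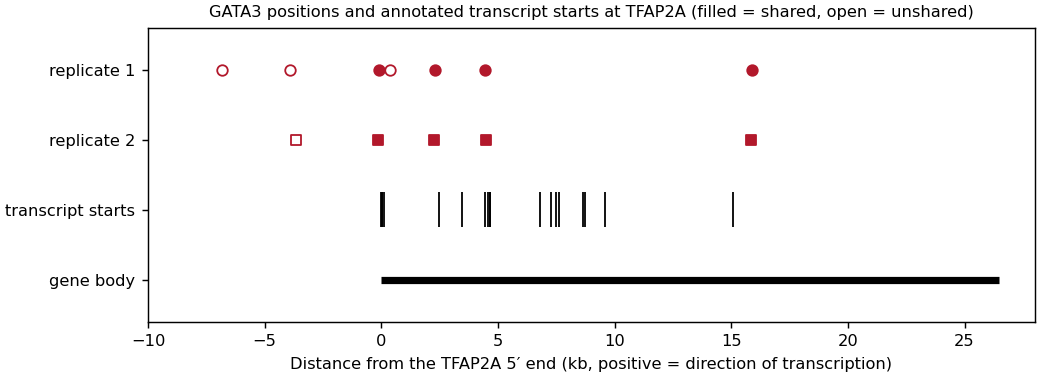
GATA3 positions of each replicate and annotated transcript starts along TFAP2A (horizontal axis, distance from the 5′ end in kb; filled symbols shared, open symbols unshared). The shared regions 0.122 kb upstream and 2.26 and 4.47 kb downstream each lie within 200 bp of a transcript start, and the region at 15.9 kb lies inside the gene, 794 bp from the nearest start.

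The DNA of these regions is shown to compare those near the starts with those farther away. GATA factors recognise the core GATA, searched here on both strands as AGATAA or AGATAG or TGATAA or TGATAG. The AP-2 palindrome was searched as GCCNNNGGC. Each sequence covers 200 bp around the region's centre on the plus strand of hg38, and capitals mark GATA sites or, in the second, the AP-2 match. The first 2 lie by the starts, at chr6:10419682-10419881 and chr6:10417297-10417496. The last 3 lie farther away, at chr6:10519050-10519249, chr6:10451553-10451752 and chr6:10403701-10403900.
TFAP2A 0.122 kb upstream: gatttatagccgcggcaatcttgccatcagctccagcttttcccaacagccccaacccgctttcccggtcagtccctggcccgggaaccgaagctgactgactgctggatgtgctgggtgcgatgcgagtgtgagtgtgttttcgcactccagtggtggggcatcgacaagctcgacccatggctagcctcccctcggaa
TFAP2A 2.26 kb downstream: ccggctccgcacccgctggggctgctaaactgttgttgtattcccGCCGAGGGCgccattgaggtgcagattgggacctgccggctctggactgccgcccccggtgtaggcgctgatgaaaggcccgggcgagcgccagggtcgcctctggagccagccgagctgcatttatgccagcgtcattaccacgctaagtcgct
TFAP2A 99.5 kb upstream: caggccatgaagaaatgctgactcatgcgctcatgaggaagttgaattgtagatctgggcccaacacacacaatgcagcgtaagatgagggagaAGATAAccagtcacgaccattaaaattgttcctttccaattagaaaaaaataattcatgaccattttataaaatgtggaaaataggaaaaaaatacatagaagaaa
TFAP2A 32.0 kb upstream: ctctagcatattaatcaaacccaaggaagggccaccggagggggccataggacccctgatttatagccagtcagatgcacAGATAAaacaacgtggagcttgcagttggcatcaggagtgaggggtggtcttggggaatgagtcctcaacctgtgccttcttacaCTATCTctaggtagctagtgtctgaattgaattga
TFAP2A 15.9 kb downstream: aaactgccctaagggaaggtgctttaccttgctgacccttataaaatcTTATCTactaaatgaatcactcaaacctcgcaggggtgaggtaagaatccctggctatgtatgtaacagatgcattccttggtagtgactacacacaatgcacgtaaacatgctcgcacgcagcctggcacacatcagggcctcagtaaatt

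The regions by the starts and those farther away differed in their sequence. None of the 3 regions within 10 kb had a GATA site in 200 bp, nor in 400 bp. The nearest site lay 560 bp from the centre at the 5′ end, 820 bp away at the next region and 253 bp away at the region near the canonical start. Of the 4 regions farther away, 3 had a site in 200 bp and in each the form AGATAA was present, 3 bp from the centre at 99.5 kb upstream, 16.5 bp at 32.0 kb upstream and 48.5 bp at 15.9 kb downstream. The region 32.0 kb upstream also had the site CTATCT, the reverse complement of AGATAG. The region at 96.0 kb had none within 200 bp, with the nearest 324 bp away. In all, 3 of the 7 TFAP2A regions held a site (42.9%, exact 95% interval 9.90% to 81.6%), and so did 82.0% of all shared regions.

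Base composition moved with this difference. The 3 regions near the starts had 60%, 65.5% and 61.0% G or C, in order from the 5′ end. The other 4 TFAP2A regions had 36.5%, 49.0%, 45.5% and 44.5%, from the farthest upstream to the farthest downstream. Over all shared regions the median was 44% and the quartiles were 39.5% and 48.5%, so the region at 36.5% was below and that at 49.0% just above the middle range. Only 3.96% of all shared regions (362 regions) had 60% or more. Among those 362 regions, 50.3% held a GATA site, against 83.3% of the less GC-rich ones. Among the 309 regions within 200 bp of a protein-coding transcript start, 65.0% did. A GATA3 region without a site was thus less unusual among GC-rich or start-proximal regions, and the part of base composition in the lack of sites at TFAP2A was not tested. The region near the canonical start was rich in purines, with 78.5% A or G on the plus strand. Its letters are not shown because 118 of its 200 bases are in an untranslated exon.

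An AP-2 match was present in 1 of the 9 family regions in 200 bp (11.1%), the TFAP2A region 2.26 kb downstream of the 5′ end, and in 4.21% of all shared regions. It lay 50.5 bp from the centre and overlapped GGCGCC, a sequence bound by SMAD1 and SMAD5, the transducers of BMP4. GGCGCC was in 1.96% of all shared regions. Of the 362 GC-rich shared regions, 25.1% held an AP-2 match. In a wider window of 400 bp the region near the canonical start had one too. The AP-2 matches and GGCGCC were matches to letters only, and neither AP-2 nor SMAD binding was examined here.

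Sequences of other factors were searched in the same way. GGAATG, the sequence bound by TEAD factors, was present in the regions 32.0 kb upstream and 15.9 kb downstream, and in 3 of the 9 family regions against 18.9% of all shared regions. TGANTCA, the AP-1 site, was present in the regions 99.5 kb upstream and 15.9 kb downstream, 2 of 9 against 8.88%. GTCTG, a SMAD-binding sequence, was in 2 of 9 against 36.1%, and ATGCAAAT, the octamer bound by the pluripotency factor OCT4, in 0 of 9 against 5.10%. With 9 regions, each of these shares has a wide interval (for 2 of 9, 2.81% to 60%).

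The region at the TFAP2A 5′ end lay inside a promoter of the RefSeq table (GRCh38.p14), which lists 250 bases before to 50 after a start. This promoter, chr6:10419610-10419909, held a position of each replicate, no GATA site and no AP-2 match. The other TFAP2A promoter of that table, chr6:10412342-10412641, held no position. Promoters of TFAP2B, TFAP2D and TFAP2E in the same table held no position either. Among all 35116 promoters of the table, 25% held a GATA site, 23.2% an AP-2 match and 19.2% GGCGCC. TFAP2C was not matched.

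The regions away from the starts were placed as follows. The region 99.5 kb upstream, with positions 10519146 and 10519153, lay within GCNT2, a gene for an enzyme that builds branched I antigen glycans, and GCNT2 was the protein-coding gene with the nearest 5′ end, 26.9 kb away. The region 32.0 kb upstream, with positions 10451641 and 10451663, lay in the long non-coding RNA gene MIR5689HG, and the nearest protein-coding 5′ end was that of TFAP2A. The region at 15.9 kb, with positions 10403785 and 10403815, lay in intron 4 of the canonical TFAP2A transcript. The region at 96.0 kb, with positions 10323667 and 10323586, lay in no annotated gene. With only positions nearer to TFAP2A than to any other protein-coding 5′ end, TFAP2A had 6 regions.

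The replicates were then compared position by position. Within the 7 shared regions, where the rule allows at most 100 bp, their positions were 7 to 81 bp apart, with a median of 30 bp, against a median of 23 bp over all shared regions. The shared regions took up 58.3% of the 12 replicate 1 positions (95% Wilson interval 32.0% to 80.7%) and 70.0% of the 10 replicate 2 positions (39.7% to 89.2%), close to the 49.6% and 71.6% of the whole lists. The 3 unshared positions of replicate 2 each had a replicate 1 position nearby: 139 bp apart at 36.4 kb downstream, 265 bp apart near 3.9 kb upstream and 149 bp apart near 60.8 kb upstream. Positions at 0.369 kb downstream and 6.82 kb upstream were in replicate 1 alone. With a limit of 250 bp TFAP2A had 9 shared regions, with 500 bp 10, and with 50 bp 6.

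The authors' gene names gave fewer. The symbol TFAP2A was on 4 positions of replicate 1 and 3 of replicate 2, all within 5 kb of the 5′ end, and the symbols of the other 4 members were on none. The shared region at 15.9 kb carried the name TFAP2A-AS1.

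TFAP2B and TFAP2D are neighbours on chromosome 6, with 5′ ends 105.2 kb apart in the same direction. Their 100 kb windows overlap over 94.8 kb, and no position of either replicate was found in this overlap. TFAP2B (ENSG00000008196.13, chr6:50818723-50847619, plus strand) had replicate 1 positions at 24.2 and 26.4 kb and replicate 2 positions at 26.4, 27.3 and 50.0 kb. The positions 50845124 and 50845161.5 were shared, 26.4 kb downstream of the 5′ end in exon 7 of the canonical transcript, its untranslated part. TFAP2D (ENSG00000008197.5, chr6:50713526-50773033, plus strand) had 1 position in each replicate, 50664517 and 50664567, which formed a region 49.0 kb upstream. Neither gene had a shared region within 10 kb of its 5′ end, in contrast to TFAP2A with 3.

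Both of these regions held GATA sites, away from their centres. Shown are 200 bp of the TFAP2D region, chr6:50664443-50664642, and only the 30 bases around each of the 2 sites in the TFAP2B exon, chr6:50845047-50845076 and chr6:50845204-50845233, all on the plus strand with the sites in capitals.
TFAP2D 49.0 kb upstream: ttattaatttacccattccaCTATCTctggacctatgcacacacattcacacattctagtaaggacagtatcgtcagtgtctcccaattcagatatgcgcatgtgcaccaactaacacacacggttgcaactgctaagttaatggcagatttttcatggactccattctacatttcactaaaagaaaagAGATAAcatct
TFAP2B first site: tccatcttagcaTTATCAtgaaataagatc
TFAP2B second site: aataccccttaaAGATAAcgacatagatgt

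The sites lay 76.5 and 92.5 bp from the centre of the TFAP2D region and 81.25 and 75.75 bp from that of the TFAP2B region. Therefore neither region held a site in the central 100 bp, where 71.2% of all shared regions did. With these regions included, 5 of the 9 family regions held a site in 200 bp (55.6%, exact 95% interval 21.2% to 86.3%), each with the form AGATAA, which was in 51.6% of all shared regions. In the central 100 bp the count was 2 of 9. Counted over positions rather than shared regions, 7 of 16 in replicate 1 (43.8%) and 6 of 14 in replicate 2 (42.9%) had a site in 200 bp, against 77.3% and 77.5% of the whole lists.

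TFAP2C encodes AP-2γ and lies on the plus strand at chr20:56629306-56639283 (ENSG00000087510.7). It had 1 position in replicate 1, at 61.4 kb downstream (56690687), and 0 in replicate 2, so no shared region. The nearest shared regions lay just outside the 100 kb limit. They lay 104.8 and 107.3 kb downstream, and the replicate positions were 1 bp apart in the first and 81 bp apart in the second. No other protein-coding 5′ end was nearer to either. With a window of 200 kb TFAP2C therefore had 2 regions, as did TFAP2B and TFAP2D, and TFAP2A had 9. With that window the share over all protein-coding genes was 68.35%, and the mean within 200 kb of the 5′ end was 1.29, so 2 regions were near the background.

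For TFAP2A too, shared regions lay outside the limit, at 104.5 kb downstream and 117.5 kb upstream, while its regions just inside were at 96.0 and 99.5 kb. The counts at 100 kb thus depend on the limit for TFAP2C more than for TFAP2A, where 5 of 7 regions lay within 50 kb.

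TFAP2E (ENSG00000116819.9, chr1:35573314-35595328, plus strand) had no position in either replicate. Its window was not poor in genes, with the 5′ ends of KIAA0319L, NCDN and PSMB2 in it. The nearest position was in replicate 1 alone at 135.1 kb, and the nearest shared region was at 277 kb. In having no shared region by the 100 kb rule TFAP2E was like 52.5% of protein-coding genes. Having no position was less common, since 68.49% of protein-coding genes had a position in replicate 1 and 57.16% in replicate 2. With a window of 200 kb TFAP2E still had 0 shared regions, and 68.35% of protein-coding genes had at least 1.

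**Figure D4:**
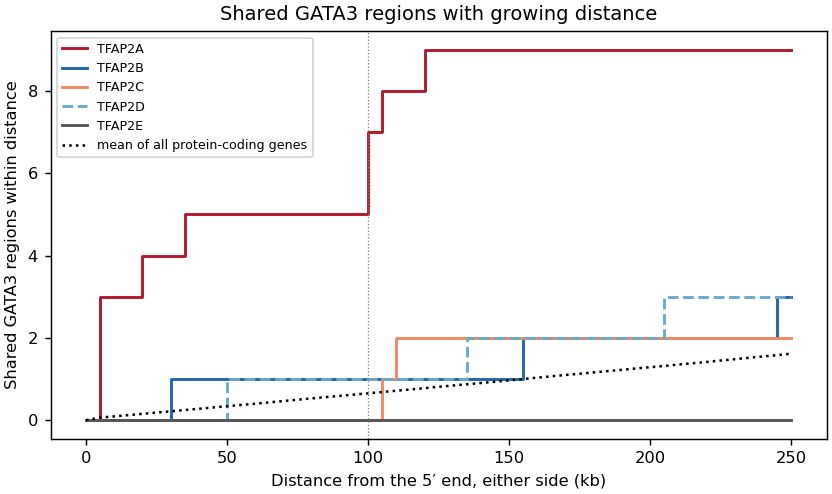
Number of shared GATA3 regions (vertical axis) within a growing distance on either side of the 5′ end (horizontal axis, kb, counted at steps of 5 kb) for each AP-2 gene and as a mean over all protein-coding genes (dotted). TFAP2A reaches 3 by 5 kb, 5 by 50 kb and 9 by 150 kb, TFAP2C stays at 0 until 105 kb and ends at 2, and TFAP2E stays at 0.

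AP-2 activity depends on partner proteins, and their genes were counted by the same window and gene body. Of 12 genes for AP-2 cofactors and inhibitors, 6 had a shared region (47.5% of all protein-coding genes did), with a mean of 1.42. CITED2, a coactivator that joins AP-2 to the acetyltransferases p300 and CBP, had 6 positions in replicate 1, 5 in replicate 2 and 5 shared regions, the nearest 5.75 kb downstream of the 5′ end. WWOX, which binds AP-2γ, had 6, all of them inside its gene body of 1113 kb and none within 100 kb of its 5′ end. KCTD1, a repressor of AP-2α, and CREBBP, which encodes CBP, had 2 each. NPM1, a nucleolar chaperone, had 1. CITED1, CITED4, KCTD15, EP300, YEATS4 and PARP1 had none. Around the 5′ end alone 5 of the 12 had a region, beside 45.0% of protein-coding genes, so the share of this list with a region was near the background. The number at CITED2 was less common. All 5 of its regions lay within 100 kb of its 5′ end, and by window and gene body 70 of the 20033 protein-coding genes had exactly 5.

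Of 10 known AP-2 target genes, 7 had a shared region, with a mean of 1.2. CGA, the glycoprotein hormone alpha subunit made by trophoblast, had 3 regions, the nearest 20.8 kb upstream. ERBB2, a receptor tyrosine kinase, had 2, the nearest 2.74 kb downstream, and CDH1, which encodes E-cadherin, had 2, the nearest 4.37 kb upstream. ESR1 had 2, and MCAM, KRT14 and RET had 1 each, while KIT, CDKN1A and IGFBP5 had none. None of the targets had as many as TFAP2A. With 10 genes, a share of 7 in 10 is not set apart here from the background of 47.5%, and no test was made.

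Other transcription factor families, chosen by family and not by cell type, were set beside the AP-2 genes. They are not a neutral scale, since they were chosen with earlier results of these data known. The study reports GATA2, GATA3 and MSX2 among the early genes shared by its BMP4-containing protocols. It also reports GATA3 binding at GATA3 itself and at CDX2. Among the 6 GATA genes, GATA2 had 9 regions, GATA3 itself 6 and GATA6 3, and GATA1, GATA4 and GATA5 had none. The TFAP2A count thus lay between those of GATA2 and GATA3. Within 10 kb GATA2 and GATA3 had 4 regions each, TFAP2A 3 and GATA6 2. Among the caudal genes CDX2 had 2, both within 10 kb, and CDX1 and CDX4 had none. Of the 8 MSX and DLX homeobox genes 6 had a region and none had more than 2. Beside the background of 47.5% of protein-coding genes, the shares with a region were 50% of the GATA, 33.3% of the caudal and 75% of the MSX and DLX genes, with 3 to 8 genes in each family. DLX genes lie in neighbouring pairs whose windows overlap, so their counts are not independent.

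**Figure D5:**
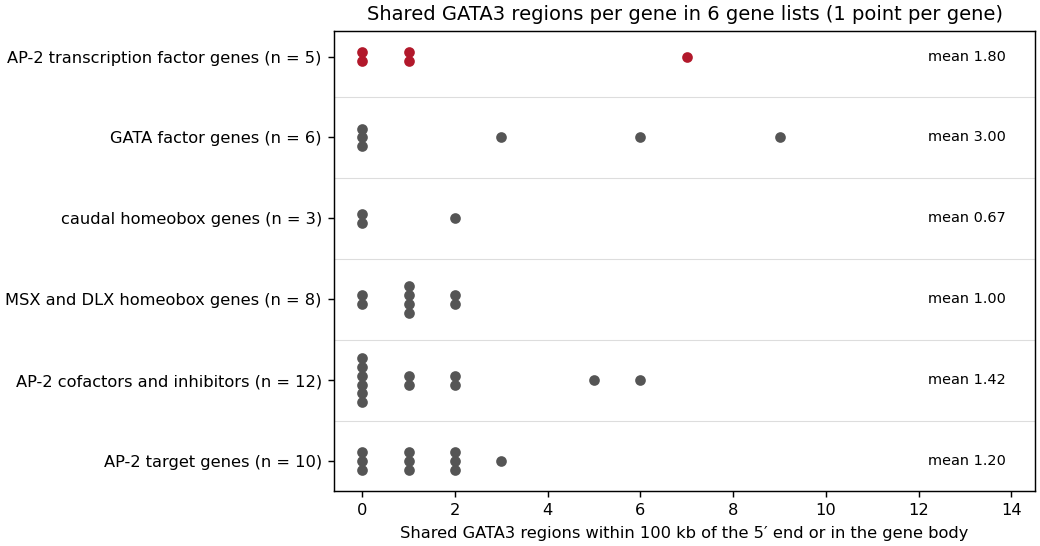
Shared GATA3 regions within 100 kb of the 5′ end or in the gene body (horizontal axis) for the genes of 6 lists, 1 point per gene, with the list's mean at the right. TFAP2A at 7 lies between GATA3 at 6 and GATA2 at 9, and the means run from 0.667 for the caudal genes to 3.0 for the GATA genes, with 1.8 for the AP-2 genes.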

How the data were processed

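GATA3 ChIP-seq of 2 biological replicates, each with input chromatin, was made from H1 hESCs after 6 h of BMP4. Per the submitters' processing notes the reads were handled with cutadapt, Bowtie, Picard and MACS2 on hg38, and versions are not given in the sources used here. The deposited files of the authors list 1 position per peak and a gene name, in a unit of base positions. By the study's methods, duplicates, multiply mapped reads and blacklisted regions had been removed. Peaks were called in each replicate against its own input at a q-value of 0.05. The deposited lists had 18545 and 12870 lines, and the peak numbers in the study's methods differ from both. The reason is not stated, so the lists may not be the peak sets that the study describes. How a peak was reduced to 1 position, and whether bases were counted from 0 or 1, is not stated, so positions are printed as deposited and carry an uncertainty of at least 1 bp. The input samples were not analysed here. The study's methods give read depth as a mean over the ChIP and input samples, and the position lists hold no depth of each replicate, so a position missing from 1 replicate cannot be told from one lost to depth.

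Positions on 24 chromosomes were kept once each, which removed 7 and 5 repeated lines. Genes and transcripts were those of GENCODE release 44, sequence was hg38, and promoters were those of RefSeq (GRCh38.p14). Positions of the replicates within 100 bp were linked, and the region centre was the mean of the replicate positions. Motifs were counted on both strands in 200 bp. Intervals are 95% Wilson intervals, or exact Clopper-Pearson intervals for motif shares, and cover counting error only. Counting used Python 3.11.15, numpy 2.4.6, pandas 2.3.3 and scipy 1.17.1 and was tested on simulated data. No comparison had a test. Text names the AP-2 genes, the genes of both AP-2 lists and the compared families, and protein-coding genes with a 5′ end in a member's window. Members and lists were chosen with earlier results of these data known. The comparison of regions by GC content and by distance from transcript starts was added after the values were seen. Alternatives were other limits for linking, other windows, the symbol alone, 1 replicate alone and other motif windows. A gene of the cofactor list and the sequence of a region are not reported here.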

Additional observations from a re-analysis of the deposited data

How the results depend on the processing

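Of 99 values recomputed under the alternatives, 17 changed by over 1.5 times or, for motif shares, left the interval, and 82 did not. The intervals of the motif shares over 9 regions are wide, so large changes can lie inside them. With a window of 200 kb TFAP2B, TFAP2C and TFAP2D had 2 shared regions each. The means per gene were then 5.5 for the active and 1.33 for the other members. By the same window and gene body 68.35% of all protein-coding genes had a region. Their mean of 1.29 was counted within 200 kb of the 5′ end alone, without the gene body. By the authors' symbol alone TFAP2A had 3, TFAP2B 0 and TFAP2D 0, with means of 1.5 and 0. The share of family regions with an AP-2 match was 0% in 100 bp and 22.2% in 400 bp windows, and that with a GATA site was 22.2% in 100 bp. With either replicate alone the counts of positions ran from 10 to 12 at TFAP2A, 2 to 3 at TFAP2B and 0 to 1 at TFAP2C. The means ran from 5 to 6.5 for the active and from 1.0 to 1.33 for the other members. Of all protein-coding genes, 68.49% had a position in replicate 1 (mean 1.49) and 57.16% in replicate 2 (mean 1.04). The means of the other members were thus near the background. TFAP2A had the highest count of the family in each of these settings.

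No paired analysis was possible because no result comes from a test and the ChIP replicates form 1 group. The main limits are the lack of untreated cells, of peak heights and of the read depth of each replicate, the 2 replicates, and the 9 regions behind every motif share. Distance does not tie a region to a gene, and the target of each region was not tested. TFAP2C depends on the 100 kb limit, since its shared regions lay at 104.8 and 107.3 kb.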
